A study of Mus musculus with 6 samples.

Results

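The genes described here carry out MHC class I antigen presentation, and they were chosen as a list of 9 mouse symbols: H2-K1, H2-D1, B2m, Tap1, Tap2, Tapbp, Nlrc5, Calr and Pdia3. All 9 were found among the 21006 Ensembl gene identifiers measured in the prefrontal cortex, the front part of the cortex. The values came from 18-month-old male C57BL/6 wild type mice, with 3 animals in the PND group (postoperative neurocognitive disorder model) and 3 in the CON group, each giving 1 sample. PND mice were exposed to 1.5% isoflurane for 30 min, had an exploratory laparotomy of 30 min under isoflurane, and then received lidocaine cream and povidone iodine on the wound. CON mice had no anesthesia or operation. Per the methods of the study, mice of both groups went through fear conditioning with foot shocks and the Barnes maze, and were anesthetized with isoflurane and perfused with saline before the tissue was taken, so these steps were shared by the control.

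Nucleated cells show fragments of their own proteins on class I molecules, which CD8 T cells and natural killer cells inspect. Peptides made by the proteasome are pumped into the endoplasmic reticulum by the TAP transporter, trimmed, and fitted into a pair of a heavy chain and beta-2 microglobulin with the help of chaperones. Interferons raise transcription of most of these genes, and in brain the class I molecules are best known from microglia and endothelial cells, while neurons carry them at low levels and use them in synapse refinement.

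Of the 9 genes, Pdia3 was the only one with an unadjusted p below 0.05, and it was lower in PND by a small amount (46.8 ± 0.681 against 55.5 ± 1.24 FPKM, SD, n = 3). Tap2 was higher in every PND animal than in any CON animal (0.552 ± 0.224 against 0.259 ± 0.0673 FPKM) but did not pass the test. The heavy chains H2-K1 and H2-D1, the light chain B2m, Tap1, Tapbp and Calr overlapped between the groups, and Nlrc5 was too low to be tested. Of all 9 genes, 0 passed the cut-off of the study, an absolute log2 fold change above 1 with an unadjusted p below 0.05.

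Levels are in FPKM, a fragment count divided by exon length and by depth, so levels of different genes can be set side by side. Calr was the highest with a mean of 101 FPKM over the 6 samples, followed by B2m with 69.7 and Pdia3 with 51.2 FPKM. H2-D1 had a mean of 2.56 FPKM, Tapbp 2.03, H2-K1 0.724, Tap2 0.405, Tap1 0.119 and Nlrc5 0.0572 FPKM. The samples of neighbours in this order overlapped, except that Pdia3 lay above H2-D1 and Tapbp above H2-K1 in all 6 samples without overlap. The light chain and the chaperones Calr and Pdia3 thus stood far above the heavy chains, tapasin, the transporter and the regulator.

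The values of all genes summed to 215640 to 240447 FPKM per sample, and mitochondrially encoded genes took 30.4% to 38.8% of that sum. The depth behind the values was estimated at 7211218 to 9384298 fragments per sample, with no files identical between animals. The limma p-values rest on the spread between these 3 animals per group, moderated toward the spread of other genes of similar level. They are not a measure of the spread of a gene's own values alone.

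**Figure D1:**
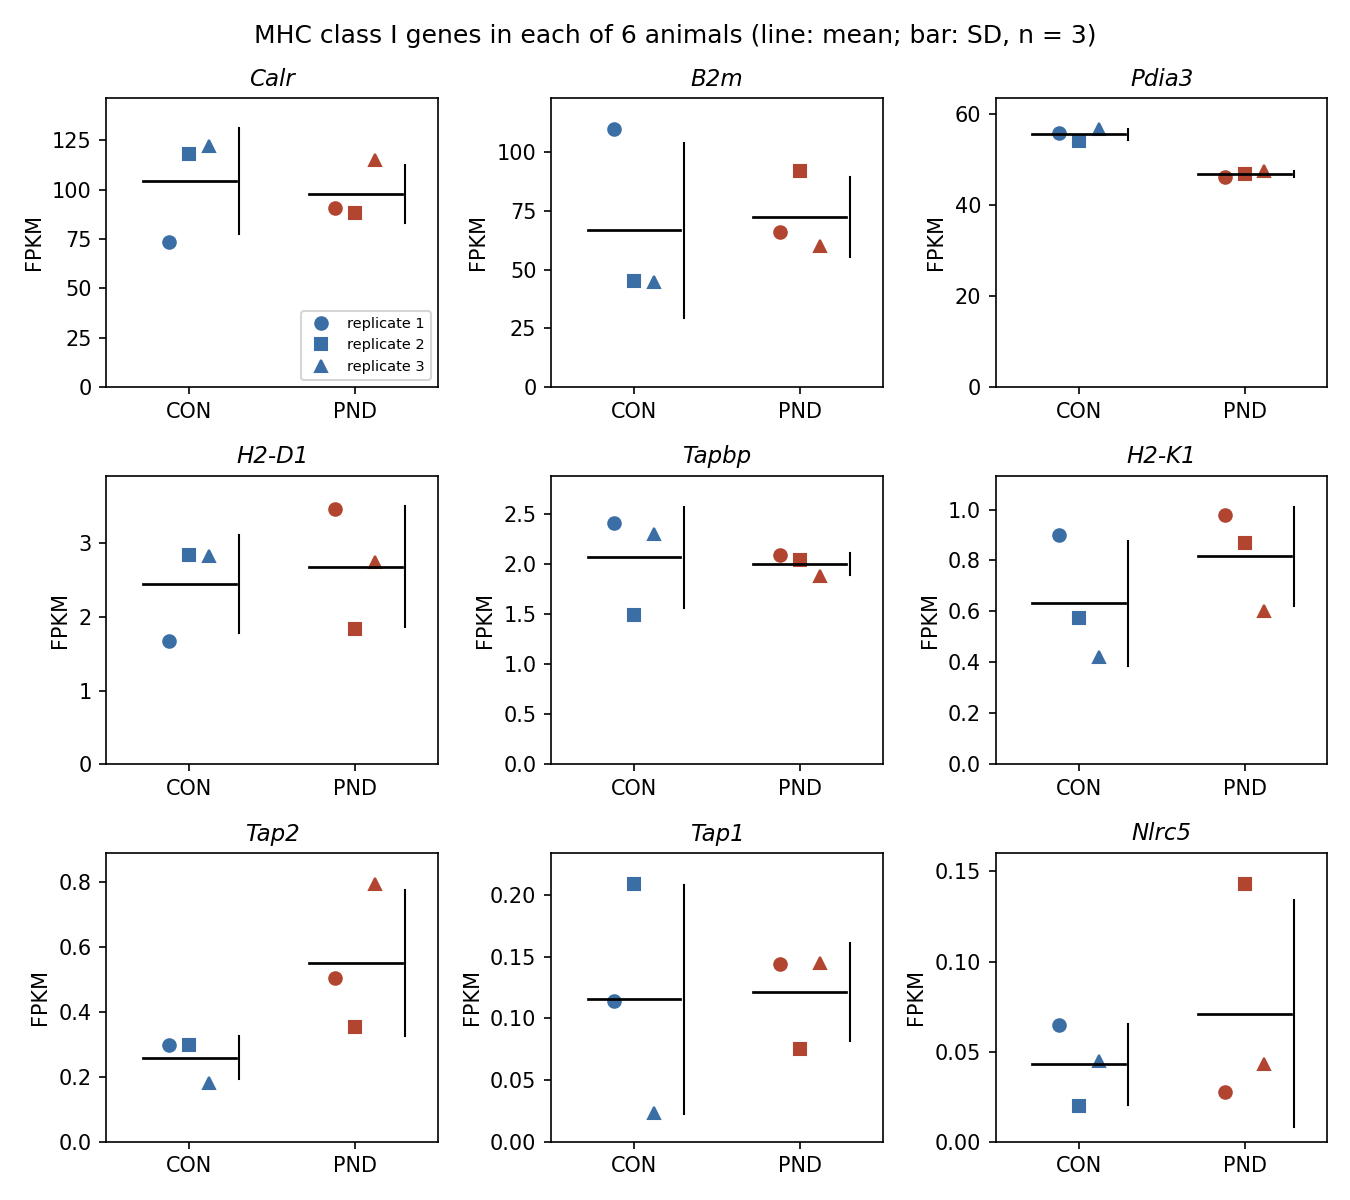
FPKM of the 9 genes in each animal, 1 panel per gene, with linear axes from 0. Circles, squares and triangles are replicates 1, 2 and 3, the horizontal line is the group mean and the vertical bar the SD (n = 3). Pdia3 lay at 46.1 to 47.5 FPKM in PND and 54.2 to 56.7 in CON, and Tap2 was also separated, while the other genes overlapped.

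H2-K1, Tapbp, Tap1, Tap2 and H2-D1 lie within 1.35 megabases of chromosome 17 in GRCm38, in the H2 complex. B2m and Pdia3 are on chromosome 2, and Calr and Nlrc5 on chromosome 8. RefSeq promoter windows, from 250 bases before to 50 after the start, were at hand for 7 of the 9 genes. They were searched on both strands for 5 short motifs, and the matches are a description of the letters only. Only exact matches were counted, so a window without a match can still hold a variant of the element. The core of the interferon-stimulated response element (GAAA, a pair of free bases, GAAA) matched in B2m, and in 3.44% of the 32851 promoter windows. On the other strand this core reads TTTC, a pair of free bases, TTTC. Near it in letters is TTTCACTTCT, held by the windows of H2-K1 and H2-D1, which ends in TTCT and so was not counted. The lack of a match there thus does not show that the heavy chains lack such an element. The endoplasmic reticulum stress response element (CCAAT and CCACG with 9 free bases between) matched in Calr and in 0.119% of all windows. CCAAT alone, which is also the first part of that element, matched in the windows of all 7 genes and in 37.4% of all windows. TGACGT (7.51% of all windows) and the string taken for NF-kappaB, GGGG, a pair of free bases and TTCC (1.47%), matched in none of them. The windows of H2-K1 and H2-D1 hold GGGGATTCCCC, which that string misses because a single base parts GGGG from TTCC. The sequences of B2m and Calr are shown because these genes ran in opposite order over the animals, and that of Pdia3 because it had the smallest p of the list. Each gives 180 bases ending just before the RefSeq start in GRCm38.p6, written 5′ to 3′ along the gene, with the matches in capitals.
B2m (chr2:122147507-122147686, plus strand): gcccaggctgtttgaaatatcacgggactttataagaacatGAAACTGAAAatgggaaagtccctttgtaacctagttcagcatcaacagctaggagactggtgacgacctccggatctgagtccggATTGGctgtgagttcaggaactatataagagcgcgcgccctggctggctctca
Calr (chr8:84846932-84847111, minus strand): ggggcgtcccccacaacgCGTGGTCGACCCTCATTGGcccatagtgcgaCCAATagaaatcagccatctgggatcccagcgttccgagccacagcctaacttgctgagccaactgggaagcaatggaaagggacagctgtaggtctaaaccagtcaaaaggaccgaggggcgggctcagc
Pdia3 (chr2:121413722-121413901, plus strand): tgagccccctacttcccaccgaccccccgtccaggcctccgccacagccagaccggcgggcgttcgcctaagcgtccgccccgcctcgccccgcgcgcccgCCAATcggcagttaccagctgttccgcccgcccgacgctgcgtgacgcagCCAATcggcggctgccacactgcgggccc

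The heavy chains are the polymorphic part of the class I molecule that holds the peptide. H2-K1 (ENSMUSG00000061232, chromosome 17, 33996017 to 34000347) was at 0.979, 0.870 and 0.601 FPKM in PND replicates 1 to 3 and at 0.899, 0.574 and 0.421 FPKM in CON replicates 1 to 3. CON replicate 1 lay among the PND samples, so the groups overlapped. The log2 fold change on the log2(FPKM + 0.1) scale was 0.36 (SE 0.34), with a 95% interval of -0.45 to 1.16 and an unadjusted limma p of 0.332. It was 0.61 without CON replicate 1, 0.54 without PND replicate 3, 0.23 without PND replicate 1 and 0.14 without CON replicate 3, and 0.16 with a pseudocount of 1.

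H2-D1 (ENSMUSG00000073411, chromosome 17, 35262730 to 35267499), the other classical heavy chain of this strain, was at 3.46, 1.83 and 2.74 FPKM in PND and at 1.67, 2.84 and 2.82 FPKM in CON. The lowest sample of each group was far under its other samples, PND replicate 2 and CON replicate 1. The log2 fold change was 0.12 (SE 0.30, 95% interval -0.59 to 0.83, limma p 0.707). H2-D1 was above H2-K1 in every animal, by a ratio that ranged from 1.86 in CON replicate 1 to 6.70 in CON replicate 3. Stretches of at least 75 bases identical to transcripts of other genes covered 172 of the 1619 bases of the longest protein-coding H2-K1 transcript and 288 of the 2102 bases of that of H2-D1. H2-Q1, H2-Q6, H2-Q7 and the other heavy chain were among these genes, so the levels of both heavy chains are uncertain in the authors' counting. No stretch of this length was shared by B2m, Tap1, Tap2, Nlrc5, Calr or Pdia3.

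B2m (ENSMUSG00000060802, chromosome 2, 122147686 to 122153083) encodes the light chain that every classical class I molecule needs to reach the cell surface. It was at 66.0, 91.9 and 59.9 FPKM in PND and at 110, 45.2 and 44.9 FPKM in CON. Both extremes were CON samples, with CON replicate 1 above and CON replicates 2 and 3 below all PND animals. The log2 fold change was 0.23 (SE 0.35, 95% interval -0.60 to 1.06) with an unadjusted limma p of 0.532. Single libraries moved this value in both directions. Without CON replicate 1 the log2 fold change was 0.66, all PND animals lay above CON, and the unadjusted limma p was 0.0107 (adjusted p 0.8988, with 0.8988 to 1 over the 6 fits lacking a sample). It was 0.02 without CON replicate 2, 0.02 without CON replicate 3 and 0.05 without PND replicate 2. B2m exceeded the sum of both heavy chains by a ratio of 42.8 in CON replicate 1, of 34.0 in PND replicate 2, and between 13.2 and 17.9 in the other 4 animals.

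The TAP transporter is a pair of Tap1 and Tap2. Tap2 (ENSMUSG00000024339, chromosome 17, 34203527 to 34216321) was at 0.506, 0.354 and 0.795 FPKM in PND and at 0.299, 0.298 and 0.182 FPKM in CON. All PND animals lay above all CON animals, PND replicate 2 by the least. The mean FPKM of Tap2 in PND was 2.13 times that in CON, and its log2 fold change on the log2(FPKM + 0.1) scale was 0.82 (SE 0.38, 95% interval -0.06 to 1.70). Its unadjusted limma p was 0.0633, and the adjusted p of limma was 0.9999, with 0.8311 to 1 over all alternatives. An exact two-sided permutation test gave 0.1, the smallest p that 3 against 3 samples allow. Summed over the animals of a group, Tap2 held an estimated 55.7 fragments in PND and 22.6 in CON. Exons of Gm15821 and Gm20496 on the opposite strand overlap 533 and 165 bases of Tap2, and whether the counting used strand was not given in the sources used here.

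The unadjusted p of Tap2 was 0.0328 without an intensity trend and 0.0374 without PND replicate 2, where its log2 fold change was 1.05 and passed the cut-off. It was 0.224 without PND replicate 3, with a log2 fold change of 0.56, and 0.165 without CON replicate 3, with 0.65. With a pseudocount of 1 the log2 fold change of Tap2 was 0.29 (limma p 0.0582), and with a pseudocount of 0.01 it was 1.02 (limma p 0.0659). After correction for GC content it was 0.72 (limma p 0.0760) and the groups touched, with CON replicate 1 at 0.21 and PND replicate 2 at 0.20 log2 units above the mean of the gene.

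Tap1 (ENSMUSG00000037321, chromosome 17, 34187553 to 34197225) overlapped between the groups where its partner Tap2 did not, and a difference between these genes was not tested. It was at 0.144, 0.0754 and 0.145 FPKM in PND and at 0.114, 0.209 and 0.0237 FPKM in CON, and the CON samples held both the highest and the lowest value. These levels rested on an estimate of 0.9 to 9.3 fragments per sample. The log2 fold change was 0.12 (SE 0.49, 95% interval -1.02 to 1.26, limma p 0.810), an interval that reaches past the fold of the cut-off in both directions. Its exons overlap those of Psmb9, an immunoproteasome subunit on the opposite strand, over 212 bases.

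Tapbp, Calr and Pdia3 belong to the peptide loading complex, in which tapasin (Tapbp) holds the empty class I molecule at TAP and calreticulin (Calr) and ERp57 (Pdia3) help it fold. Pdia3 (ENSMUSG00000027248, chromosome 2, 121413775 to 121438687) was at 46.1, 46.8 and 47.5 FPKM in PND and at 55.8, 54.2 and 56.7 FPKM in CON. All PND samples were below all CON samples, and the gap between the groups was wider than the whole range within either. The mean in PND was 0.843 times that in CON, and the log2 fold change was -0.25 (SE 0.09, 95% interval -0.45 to -0.05). The unadjusted limma p was 0.0228 and the adjusted p was 0.9999, with adjusted values of 0.8311 to 1 over all alternatives. The exact two-sided permutation test again gave 0.1, the smallest value possible.

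Pdia3 also had the least spread of the list. Its coefficient of variation was 1.45% in PND and 2.23% in CON, under the 2.67% to 2.94% that counting error alone gives for its estimated 1160 to 1400 fragments per sample. The unadjusted p was above 0.05 with median centring (0.0864) and without an intensity trend (0.105). It was also above 0.05 when PND replicate 1 (0.0740), PND replicate 2 (0.0590) or CON replicate 3 (0.0704) was left out. The log2 fold change stayed between -0.26 and -0.23 under every alternative run.

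Calr (ENSMUSG00000003814, chromosome 8, 84841850 to 84846934) was at 90.7, 88.2 and 115 FPKM in PND and at 73.6, 118 and 122 FPKM in CON. CON replicate 1 was the lowest of all and the other CON samples the highest. Its log2 fold change was -0.07 (SE 0.21, 95% interval -0.56 to 0.43, limma p 0.766). In their FPKM the 6 animals ran in opposite order for Calr and B2m, from CON replicate 1, the lowest for Calr and the highest for B2m, to CON replicate 3, the highest for Calr and the lowest for B2m.

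Tapbp (ENSMUSG00000024308, chromosome 17, 33915899 to 33929292) was at 2.09, 2.04 and 1.88 FPKM in PND and at 2.41, 1.49 and 2.30 FPKM in CON. The PND samples all lay inside the CON range. For Tapbp the log2 fold change was -0.01 (SE 0.23, 95% interval -0.56 to 0.53, limma p 0.951). Exons of Gm19412 on the opposite strand overlap 904 bases of Tapbp and those of Zbtb22 on the same strand 149 bases, and 102 bases of its longest protein-coding transcript lie in stretches shared with AC122861.4.

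Nlrc5 (ENSMUSG00000074151, chromosome 8, 94434356 to 94527272) encodes the transactivator that drives class I genes. It was at 0.0274, 0.143 and 0.0430 FPKM in PND and at 0.0647, 0.0198 and 0.0449 FPKM in CON. PND replicate 2 was the highest, with an estimate of 9.6 fragments, and 3 of the 6 samples held fewer than 3 fragments. Its mean was under the 0.1 FPKM needed for the test, and without that filter its log2 fold change was 0.21 with a limma p of 0.570.

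Over the list, 8 genes were tested against 18185 in all. Past the cut-off were 0 of these 8, beside 1.33% of all genes tested (0.841% higher and 0.484% lower in PND), and by limma with Benjamini-Hochberg adjustment 0 had an adjusted p below 0.05, beside 0.011% of all genes. An unadjusted p below 0.05 was found for 1 of the 8, Pdia3, beside 3.13% of all genes (1.73% higher and 1.4% lower). The samples of the groups did not overlap in 2 of the 8, Tap2 and Pdia3, beside 7.66% of all genes (3.78% higher and 3.88% lower), and these genes lay in opposite directions. The fold change was above 0 in 5 genes, beside 52.4% of all genes, and below 0 in 3, with a median of 0.12 on the log2 scale beside 0.012 over all genes tested. With the filter raised to 1 FPKM, which leaves out H2-K1, Tap1, Tap2 and Nlrc5, the median of the list was -0.01. It was 0.02 with GC correction, 0.03 with quantile normalization, 0.05 with a pseudocount of 1, 0.01 without PND replicate 1, 0.06 without PND replicate 3 and 0.07 without CON replicate 3.

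**Figure D2:**
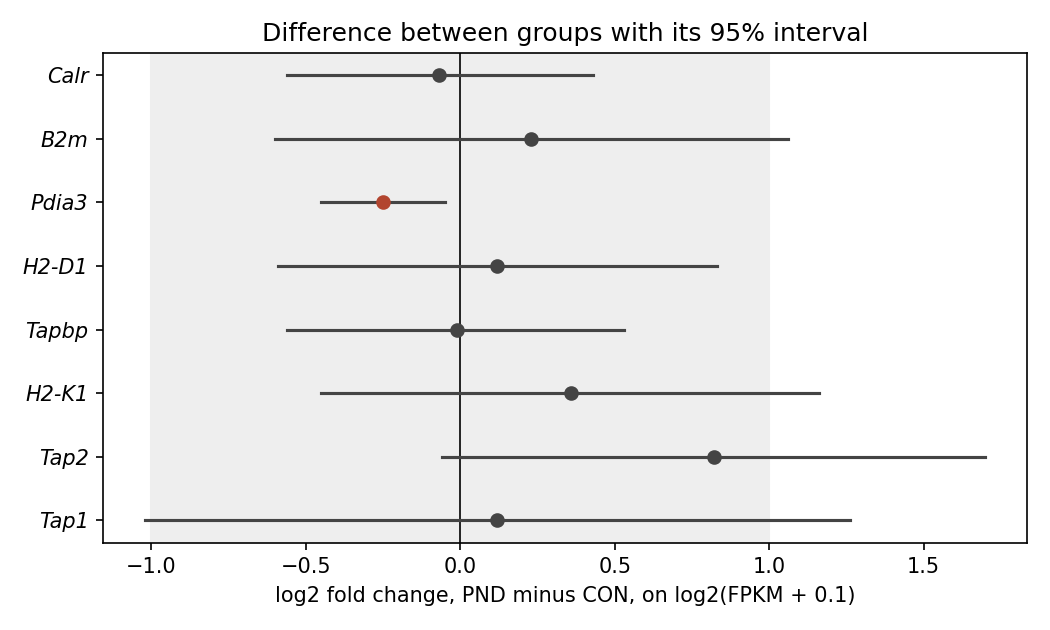
Log2 fold change of the 8 tested genes, PND minus CON, on the log2(FPKM + 0.1) scale, with the 95% interval from limma as a line. The grey band spans a log2 fold change of -1 to 1, and red marks the gene with an unadjusted p below 0.05. The interval of Pdia3 (-0.45 to -0.05) excludes 0, and those of the other genes include it.

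The GC content of a gene moved with the deviation of its value in a sample, in opposite directions within both groups. Over 18068 genes with a GC content, the Spearman rho between deviation and GC content was -0.52 in CON replicate 1, -0.35 in PND replicate 2 and -0.08 in CON replicate 3. It was 0.14 in PND replicate 1, 0.45 in CON replicate 2 and 0.47 in PND replicate 3. B2m has a GC content of 41.2% and was highest in the samples with the lowest rho, and H2-D1, with 55.9%, was lowest there. A smooth curve on GC content was removed from each sample to see what remained of each pattern.

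After that correction the SD of the log2 values of H2-D1 over the 6 samples was 0.23 in place of 0.39, and PND replicate 2 and CON replicate 1 were no longer far from the rest. The SD of B2m was 0.45 in place of 0.53, with CON replicate 1 (0.59) and PND replicate 2 (0.44) still highest. The SD of Tapbp widened from 0.24 to 0.53 and that of H2-K1 from 0.41 to 0.55. Pdia3 was little moved, with an SD of 0.15 in place of 0.14 and an unadjusted limma p of 0.00844 (adjusted p 0.9078). H2-K1 was highest in PND replicate 1 (0.44) before and in CON replicate 1 (0.64) after correction.

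**Figure D3:**
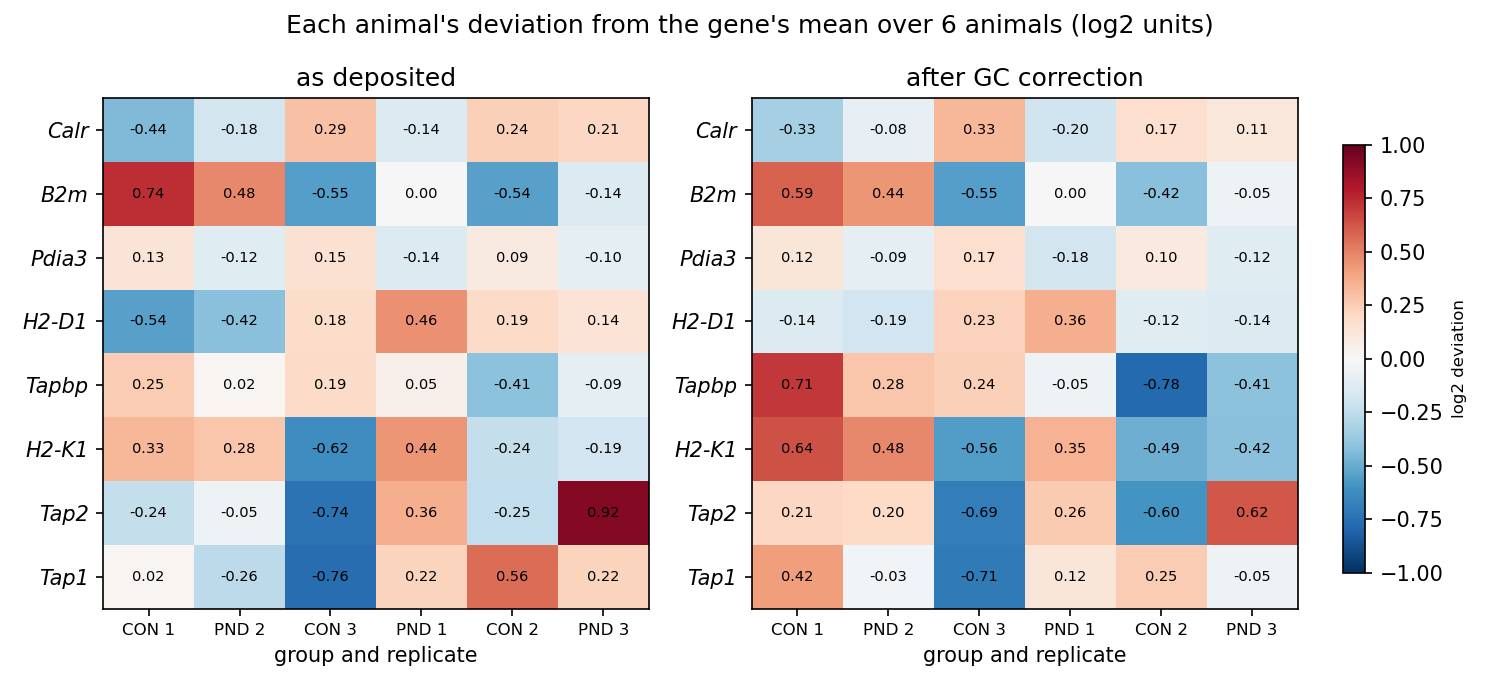
Deviation of each animal from the mean of the gene on the log2(FPKM + 0.1) scale, for the 8 tested genes, before and after GC correction. Columns run from the sample with the lowest to that with the highest rho between deviation and GC content, and red is above and blue below the mean. B2m reached 0.74 in CON replicate 1 before and 0.59 after correction, and H2-D1 moved from -0.54 to -0.14 there.

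The other genes of the pathway were examined by role, in 8 further lists with 76 genes. Of these, 67 were among the identifiers and 57 were tested, with 32 above and 25 below 0. By limma, 0 of the 57 had an unadjusted p below 0.05, beside 3.13% of all genes tested, 0 passed the cut-off and 0 had an adjusted p below 0.05. The groups did not overlap in 3 of the 57, 1 higher and 2 lower in PND, beside 7.66% of all genes (3.78% higher and 3.88% lower).

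Among nonclassical class I genes, which encode related heavy chains with specialised ligands, 11 of 17 were tested, 3 above and 8 below 0, with a median log2 fold change of -0.14. H2-T24 was at 0.635 ± 0.262 against 0.952 ± 0.290 FPKM (limma p 0.169) and H2-Q6 at 0.138 ± 0.0387 against 0.266 ± 0.159 FPKM (limma p 0.262). All 4 tested genes of the immunoproteasome and its activator PA28, which shape peptides for class I, lay above 0, with a median of 0.21. The smallest p-values there were those of Psme2, at 0.881 ± 0.246 against 0.666 ± 0.148 FPKM (limma p 0.304), and Psmb10, at 1.63 ± 0.623 against 1.28 ± 0.864 FPKM (limma p 0.372). Psmb9 was under the filter.

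Among 6 genes of peptide trimming and loading, the median was 0.02. Erap1, the aminopeptidase that trims peptides in the endoplasmic reticulum, was at 3.86, 4.22 and 3.13 FPKM in PND and at 5.19, 4.25 and 4.78 FPKM in CON. Its groups did not overlap, though replicate 2 of each nearly met, and its log2 fold change of -0.34 (SE 0.17) had a limma p of 0.0874. Tapbpl, a peptide editor related to tapasin, was at 1.13 ± 0.127 against 0.933 ± 0.412 FPKM (limma p 0.361).

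Since Pdia3 also serves glycoprotein folding in general, 9 further folding chaperones of the endoplasmic reticulum were listed, and 3 lay above and 6 below 0, with a median of -0.03. Pdia4, another disulfide isomerase, was at 16.2 ± 1.86 against 21.4 ± 4.32 FPKM (log2 fold change -0.38, SE 0.18, limma p 0.0657). Sdf2l1 was at 1.54 ± 0.251 against 1.09 ± 0.487 FPKM (limma p 0.172). Uggt1, which returns misfolded glycoproteins to calreticulin, is named here because of its values, outside the naming rule. It was the only gene of this list whose PND samples all lay below CON, at 5.23 ± 0.502 against 5.98 ± 0.379 FPKM (limma p 0.214).

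Of 13 transcription factors of class I genes, 10 lay above and 3 below 0, with a median of 0.13. Rela, a subunit of NF-kappaB, was at 2.64 ± 0.118 against 2.01 ± 0.614 FPKM (limma p 0.117). Irf1, an interferon-induced activator, was at 0.745, 0.658 and 0.628 FPKM in PND and at 0.602, 0.575 and 0.241 FPKM in CON, so its groups did not overlap, with a limma p of 0.199. The 7 interferon receptors and kinases had a median of 0.07, and the smallest p-values were those of Ifngr1 (3.04 ± 0.0893 against 2.64 ± 0.557 FPKM, limma p 0.312) and Jak2 (25.7 ± 1.71 against 27.2 ± 2.62 FPKM, limma p 0.498).

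Of 10 genes of class II presentation, which serves CD4 T cells, 6 were tested with a median of 0.02. The most abundant, named here for its level, was H2-DMa, a chaperone of class II peptide loading, at 1.61 ± 0.359 against 1.70 ± 0.315 FPKM (limma p 0.762), and the means of the other 9 were under 0.5 FPKM. Ciita, the class II counterpart of Nlrc5, was listed at 0 in 5 of the 6 samples. H2-Ab1 was at 0.0613 ± 0.0688 against 0.166 ± 0.0454 FPKM (limma p 0.139) and H2-DMb1 at 0.157 ± 0.0920 against 0.328 ± 0.257 FPKM (limma p 0.347). H2-Ab1 met the filter only through its CON samples, so its difference is given as a description. It held an estimated 1.1, 0 and 3.3 fragments in PND and 3.3, 4.4 and 2.2 in CON. Of 9 receptors of class I molecules, 3 were among the identifiers and 1 was tested, Klra2, at 0.428 ± 0.215 against 0.755 ± 0.296 FPKM (limma p 0.139).

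**Figure D4:**
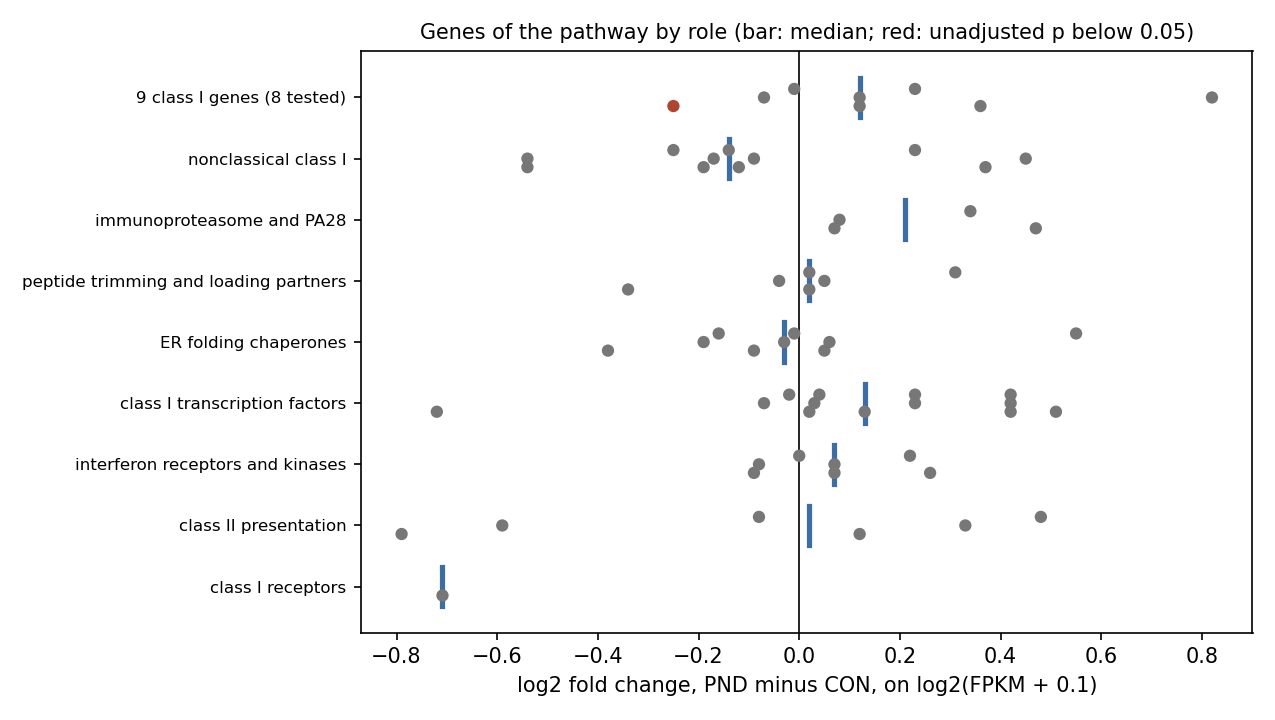
Log2 fold change, PND minus CON, on the log2(FPKM + 0.1) scale, of each tested gene by role, with the list median as a blue bar and red for an unadjusted p below 0.05. Pdia3 at -0.25 is the single red point, and the list medians lie between -0.14 and 0.21 apart from the receptors, where 1 gene was tested (-0.71).

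Markers of the cell types that carry class I molecules were read beside these values. In bulk tissue, fewer cells of a type and less RNA per cell cannot be told apart. All 10 microglia markers were tested, 3 above and 7 below 0, and their summed level was 49.3 to 56.1 FPKM in PND and 56.5 to 62.1 FPKM in CON, without overlap. P2ry12, a purine receptor of resting microglia, was lower in PND at 5.49 ± 1.36 against 9.27 ± 1.50 FPKM (limma p 0.00767). All 10 endothelial markers were tested as well, 6 above and 4 below 0, with a summed level of 41.5 to 52.6 FPKM in PND and 36.9 to 40.9 FPKM in CON, also without overlap. Ly6c1 was higher in PND at 5.79 ± 1.43 against 3.23 ± 0.117 FPKM (limma p 0.00568), while Tek was lower in every PND sample (limma p 0.0776). These separations were narrow, as a check chosen after the data were seen showed. When each gene was left out in turn, the endothelial sums overlapped in 4 of 10 cases (without Pecam1, Slco1a4, Ly6c1 or Abcb1a) and the microglia sums overlapped, for example, without P2ry12 (44.7 to 49.0 against 45.8 to 52.6 FPKM). The part of either cell type in the values of the class I genes was not tested.

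The T cell receptor markers were at or near 0. Of 11 T and NK cell markers listed, 4 were among the identifiers and Cd4 alone was tested, at 1.26 ± 0.210 against 1.39 ± 0.510 FPKM (limma p 0.816). Cd3e was listed at 0 in 4, and Cd3g and Trac in 5, of the 6 samples. Of 10 blood myeloid and B cell markers, 5 were among the identifiers, and the tested one, Lyz2, was at 2.52 ± 0.365 against 2.88 ± 0.889 FPKM (limma p 0.582). The summed levels overlapped between groups for both lists, at 1.16 to 1.57 against 1.08 to 2.04 FPKM for the first and 2.16 to 3.10 against 2.12 to 4 FPKM for the second.

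The other markers checked the tissue. The neuron markers were the most abundant, with a summed level of 933 to 994 FPKM in PND and 946 to 1010 FPKM in CON, and the smallest p-values of that list were those of Map2 (limma p 0.346) and Syt1 (limma p 0.526). Summed levels of the astrocyte list were 377 to 506 against 324 to 626 FPKM, of the oligodendrocyte list 329 to 409 against 381 to 417 FPKM, and of the choroid plexus list 31.9 to 38.4 against 33.4 to 37.7 FPKM, all overlapping. Most of the choroid plexus sum was Enpp2, and without it the sum was 2.93 to 3.72 against 1.48 to 2.98 FPKM, still overlapping. Of the 5 tested genes of that list, 4 lay above 0, the median log2 fold change was 0.34, the groups did not overlap in 2, Clic6 and Sostdc1 (beside 7.66% of all genes), and Sostdc1 passed the cut-off with 1.38 (beside 1.33%). Sostdc1 met the filter only through its PND samples and held an estimated 4.1, 4.1 and 5.1 fragments in PND and 1, 0 and 1 in CON, so its difference is given as a description. Ttr, the defining choroid plexus gene, was listed at 0 in 3 of the 6 samples. Over the 8 marker lists 57 genes were tested. An unadjusted limma p below 0.05 was found for 5 higher and 3 lower in PND, beside 3.13% of all genes. The groups did not overlap in 5 higher and 3 lower, beside 7.66% of all genes, and 3 of these were among the 10 astrocyte markers. Besides Ly6c1 and P2ry12, unadjusted p-values below 0.05 were found for Gfap (21.8 ± 3.65 against 13.6 ± 1.10 FPKM), Gjb6 (11.2 ± 1.06 against 8.34 ± 1.64 FPKM), Clic6 (1.84 ± 0.319 against 1.05 ± 0.399 FPKM) and Sostdc1 (0.284 ± 0.0234 against 0.0519 ± 0.0449 FPKM), all higher in PND. They were also found for Aqp4 (24 ± 2.14 against 30.8 ± 3.85 FPKM) and Opalin (3.39 ± 1.10 against 5.86 ± 1.53 FPKM), both lower in PND. The adjusted limma p was 0.9999 for each of these genes and for P2ry12 and Ly6c1.

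Among 12385 other genes averaging 1 FPKM or more, the 5 whose values ran most like the mean of H2-K1, H2-D1 and B2m over the 6 samples were Nit2, Amph, Gm37345, Zgrf1 and Rbm45. Their Pearson correlation with it lay between 0.986 and 0.997, as a description over 6 libraries in which each gene shares the depth and the GC trend of its library. They were picked as the highest of 12385 over 6 samples, so the height of these correlations is no result. The averaged genes did not share a pattern. B2m deviated by 0.74 in CON replicate 1 and 0.48 in PND replicate 2, and H2-D1 by -0.54 and -0.42 there. The mean itself was 0.30, 0.11 and -0.06 log2 units in PND replicates 1 to 3 and 0.18, -0.20 and -0.33 in CON replicates 1 to 3.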

How the data were processed

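Per the methods of the study, the authors removed ribosomal RNA, sequenced on an Illumina HiSeq instrument, filtered reads with Seqtk, aligned with HISAT2, counted fragments per gene with StringTie, scaled by TMM and deposited FPKM, 1 column per animal. The build and strand setting for these libraries are not given in the sources used here. The submitters' processing notes list Bowtie 0.12.2, mm8 and mm9 without a role. Groups came from the treatment label and replicate numbers from the titles. The titles carry 17M, while the age label, used here, gives 18 months.

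Symbols were matched by identifier for 20866 of 21006 genes. Coordinates, exon lengths and GC content are from GENCODE M21 (GRCm38), and promoters from RefSeq (GRCm38.p6). The groups were compared by limma 3.58.1 in R 4.3.3, with moderated variances that follow a trend in mean level. Values entered as log2(FPKM + 0.1), genes averaging under 0.1 FPKM were left out (18185 stayed), and tests were two-sided with Benjamini-Hochberg adjustment over all of them. The scale understates changes of low genes. A simulated table with planted changes was run as a check of the code only, and no result here rests on it. The 10 alternatives with all samples and the 6 that leave out a sample were run on the same table.

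FPKM give no depth. It was estimated from the steps of FPKM times exon length at 7211218 to 9384298 fragments per sample, searching 5000000 to 10000000. Of the values from 0.5 to 20.5 fragments, 41.6% to 44.8% lay within 0.05 of a whole number, so the fragments are approximate and no count test was run. The counting error given for Pdia3 was computed from them and covers no spread between animals.

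The genes and lists were chosen with earlier results of these data known. Named are the 9 genes, the genes of the other lists with an unadjusted p below 0.05 or, where a list has none, its 2 tested genes with the smallest p, and the 5 most alike in pattern. Outside this rule, and after their values were seen, Uggt1, H2-DMa, Tek, Psmb9, Ciita, Cd3e, Cd3g, Trac, Ttr, Enpp2, Pecam1, Slco1a4 and Abcb1a were named.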

Additional observations from a re-analysis of the deposited data

How the results depend on the processing

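The count of class I genes past the cut-off was 0 under all 10 alternatives that kept all samples, and 0 to 1 when 1 sample was left out, where Tap2 passed without PND replicate 2. The count with an unadjusted p below 0.05 was 1 with all samples, and 0 with median centring and 0 with the replicate block. It was 0 to 2 when 1 sample was left out, with B2m and Pdia3 as the 2 without CON replicate 1, and 0 without PND replicate 1 or CON replicate 3. Without an intensity trend and without PND replicate 2 the 1 gene was Tap2 and not Pdia3. The number of all genes past the cut-off was 241, against 25 with a pseudocount of 1 and 59 with the filter at 1 FPKM, and 235 to 388 when 1 sample was left out, the highest without CON replicate 2. A larger pseudocount shrinks low genes and a higher filter removes them. Median centring, the block and the missing trend lost Pdia3 for causes that were not tested.

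The median log2 fold change of the class I genes was -0.01 to 0.18 under the alternatives with all samples and 0.01 to 0.17 when 1 sample was left out. Tap1 changed sign with quantile normalization (-0.14). When 1 sample was left out, log2 fold changes were -0.12 to 0.36 for H2-D1, -0.23 to 0.43 for Tap1, -0.23 to 0.11 for Tapbp and -0.30 to 0.06 for Calr, so the direction of these 4 genes is not settled.

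Same-numbered samples shared only a number. Their deviations from the group means correlated across 12387 genes by -0.049, -0.451 and 0.027, and 1 of the 6 samples correlated best with its own number. With the replicate block 226 genes passed the cut-off, and the unadjusted limma p was 0.0794 for Pdia3 and 0.123 for Tap2. With GC correction and the replicate block 269 did, and Pdia3 had an unadjusted limma p of 0.0352. Tap1 and Nlrc5 rested on at most 9.3 and 9.6 estimated fragments per sample, and 3 animals per group cannot give an exact p under 0.1.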
